A study of Mus musculus with 8 samples.

Results

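Keratins are the intermediate filament proteins of epithelial cells. The keratin gene family was taken here as every probe set (a group of short probes read together as 1 value) that carries exactly 1 gene symbol made of Krt and digits alone. This rule took 55 probe sets of 44 genes, of 18193 mouse genes that had a probe set of their own. Whole prostate was taken from 3-month-old *Olfm4*-knockout mice (*Olfm4*-/-, genotype label Olfactomedin 4 KO) and from wild-type mice (*Olfm4*+/+) of the same age, with 4 arrays in each group. Both groups were on a mixed background, 129/SV (50%) with Black Swiss of the National Institutes of Health (50%), from a line kept by crossing heterozygous mice. RNA was hybridized to Affymetrix Mouse Genome 430 2.0 arrays, and all levels are log2 values after RMA, which sums the probes of a probe set on a normalized scale. The stated purpose of the series was to look for mechanisms of tumor formation in the prostate without *Olfm4*, and the question asked of the keratins here was whether their RNA differed between the genotypes.

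A keratin filament is built from pairs of a type I and a type II keratin, and different epithelial layers use different pairs. In the prostate, basal cells lie on the basement membrane and are known for *Krt5* with *Krt14*, whereas the secretory luminal cells above them are known for *Krt8* with *Krt18*. Other members are known from stratified linings, such as *Krt4* with *Krt13* in mucosa and *Krt1* with *Krt10* in epidermis, or from the hair follicle. The genes were therefore divided into 4 basal, 6 luminal, 13 stratified, 18 hair follicle and 3 other keratins, *Krt42*, *Krt88* and *Krt222*. Of the 44 genes, 22 lie on chromosome 11, where the type I genes form a cluster, and 22 on chromosome 15, where the type II genes lie together with the type I gene *Krt18*. A gene with several probe sets was represented by the one with the highest mean over the 8 arrays.

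The RefSeq promoter table (build GRCm38.p6) held an entry, from 250 bases before to 50 bases after a start site, for 31 of the 44 keratin genes. These sequences are shown because a promoter feature, which did not enter the choice of members, was commoner among keratin genes than among all entries. Not every keratin gene carried it. The letters ATAAA, the core of a TATA-like box, began between 40 and 20 bases before the start on the strand of the gene in 19 of the 31 keratin genes (61.3%), against 4.25% of all 32851 entries. The GC box, GGGCGG searched on both strands over the whole entry, was present in 2 of the 31 (6.45%), against 35.7% of all entries. A keratin gene was counted once, as carrying a motif if any of its entries did, whereas the background counted each entry singly. By group, the ATAAA run was found in 1 of 2 basal, 2 of 5 luminal, 5 of 9 stratified, 11 of 14 hair follicle and 0 of 1 other keratins that had an entry. The 150 bases before the start are given for a basal gene, a pair of luminal genes and a pair of hair follicle genes, 5′ to 3′, with each ATAAA of that window and each GC box in capitals.
Krt5, chr15:101712906-101713055, minus strand: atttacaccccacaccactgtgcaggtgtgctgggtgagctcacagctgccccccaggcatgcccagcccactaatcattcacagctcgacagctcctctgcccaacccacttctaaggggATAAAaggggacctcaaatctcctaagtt
Krt7, chr15:101412253-101412402, plus strand: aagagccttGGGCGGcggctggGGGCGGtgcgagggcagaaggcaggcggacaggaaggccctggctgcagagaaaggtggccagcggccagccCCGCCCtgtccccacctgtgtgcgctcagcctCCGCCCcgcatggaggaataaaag
Krt18, chr15:102028066-102028215, plus strand: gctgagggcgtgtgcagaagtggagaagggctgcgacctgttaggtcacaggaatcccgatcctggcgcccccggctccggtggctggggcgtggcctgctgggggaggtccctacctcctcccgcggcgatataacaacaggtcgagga
Krt25, chr11:99322952-99323101, minus strand: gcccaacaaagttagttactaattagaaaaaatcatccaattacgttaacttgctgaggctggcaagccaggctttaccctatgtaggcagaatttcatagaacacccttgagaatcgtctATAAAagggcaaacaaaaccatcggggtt
Krt71, chr15:101743098-101743247, minus strand: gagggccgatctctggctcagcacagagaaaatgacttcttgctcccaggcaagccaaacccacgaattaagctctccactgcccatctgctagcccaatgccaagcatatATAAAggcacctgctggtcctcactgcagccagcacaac
*Krt5* and *Krt25* carried ATAAA from base 29 before the start and *Krt71* from base 39. *Krt7* had 4 GC boxes, which began 141, 128, 56 and 24 bases before the start, and no ATAAA within the window searched, although the same letters stood nearer to its start. *Krt18* had neither motif. These matches describe letters only and were not set against the expression values.

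*Olfm4*, which checks the genotype labels, averaged 3.11 ± 0.10 in the knockout and 10.48 ± 0.25 in the wild type (SD, n = 4 each). Array medians lay between 6.03 and 6.09. The array names begin with 2 different dates, read here as array days, although the labels do not say what was done on them. Each day took 2 arrays per genotype (day 1 held knockout replicates 3 and 4 and wild-type replicates 1 and 4). The luminal prostate markers other than keratins averaged 12.92 to 13.11 on the knockout arrays and 13.05 to 13.10 on the wild-type arrays. A pair of arrays stood apart, since the mean of 6 seminal vesicle genes was 13.81 on knockout array 1 and 14.15 on wild-type array 1, against 9.04 to 10.04 on the other knockout arrays and 7.88 to 9.65 on the other wild-type arrays. On knockout array 1 the bladder lining gene *Upk1a* was at 8.82, against 11.70 to 12.53 on the other knockout arrays and 11.74 to 12.44 on the wild-type arrays. Other bladder lining genes went both ways on that array. *Upk3a* (6.09) was the lowest of all arrays there, while *Upk1b* (12.39), *Upk2* (9.23) and *Upk3b* (8.33) were the highest. In whole tissue, fewer cells of a type and less RNA per cell cannot be told apart.

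No keratin probe set differed between the genotypes at an adjusted p under 0.05 (limma with array day as a second term, Benjamini-Hochberg over 45037 probe sets, 2-sided), whereas 50 of all probe sets did (0.111%). None passed at 0.1 either. Before adjustment, 6 of the 55 keratin probe sets (10.9%) were at p under 0.05 with a higher mean in the knockout, where 5.46% of all probe sets were. None of the 55 was at that level with a lower mean, against 7.34% of all probe sets. The 6 belonged to *Krt15*, *Krt17*, *Krt36*, *Krt71*, *Krt83* and *Krt88*. Without knockout array 1 and wild-type array 1 there were 3 of the 55, those of *Krt17*, *Krt71* and *Krt88*. In that fit 5.49% of all probe sets were higher at this level and 7.76% lower. Every knockout array was above every wild-type array for 2 of the 55 keratin probe sets, those of *Krt36* and *Krt88*, against 3.69% of all probe sets. Every knockout array was below for none, against 5.03%.

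Of the 44 genes, 29 had a higher mean in the knockout and 15 a lower one, with a median log2 difference of 0.055 beside -0.015 over all 18193 genes. Without knockout array 1 and wild-type array 1, these were 26 and 18 genes, with a median of 0.046. Differences are given throughout as knockout minus wild type on the log2 scale, and they ran from -0.51 for *Krt79* to 0.56 for *Krt7*. The 95% confidence interval lay within 1 log2 unit (2-fold) of 0 for 40 of the 44 genes and within 0.5 for 31. The exceptions to the wider bound were *Krt7*, *Krt4*, *Krt78* and *Krt79*. The median was 0.055 for the 22 genes on chromosome 11 and 0.046 for the 22 on chromosome 15, *Krt18* included.

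**Figure D1:**
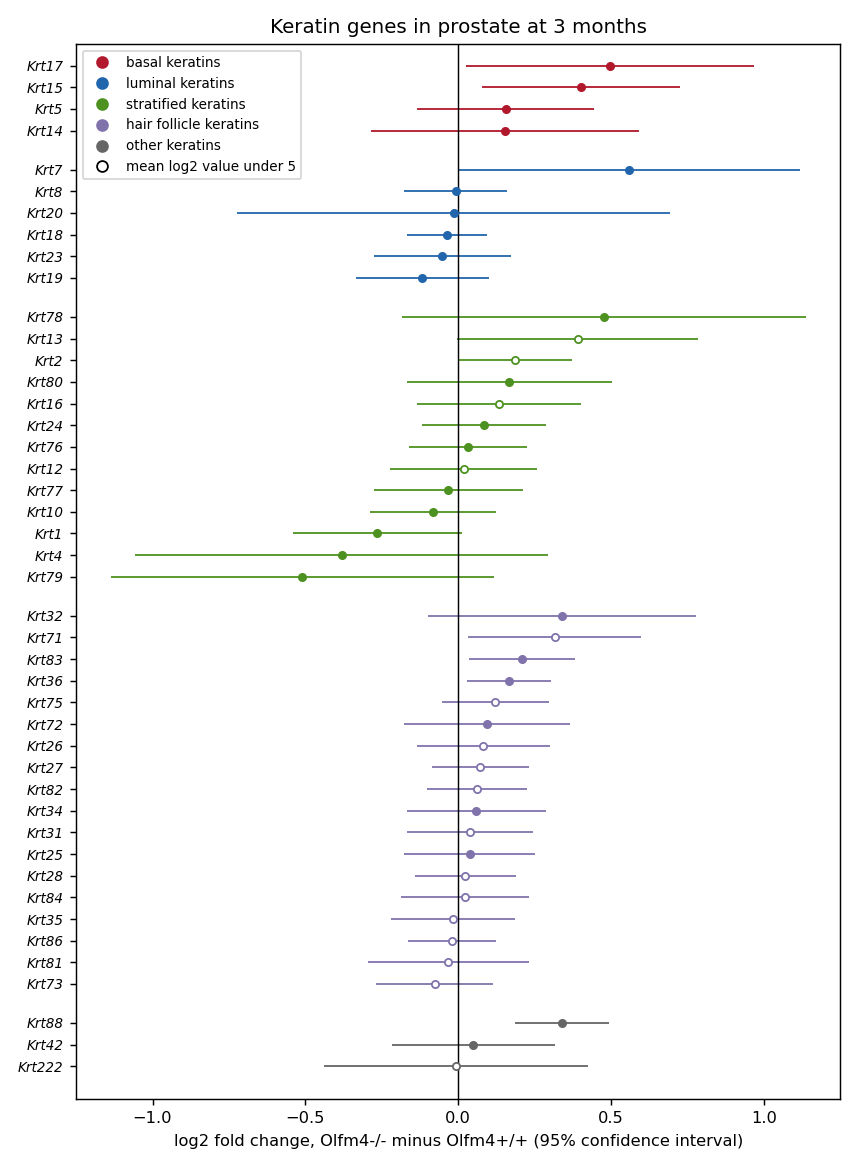
Log2 difference of each of the 44 keratin genes, knockout minus wild type, from the limma fit with array day (x axis, log2 units), by keratin group (rows). Points are estimates, bars are 95% confidence intervals, and open points mark genes with a mean log2 value under 5. The intervals of 40 genes lie within 1 log2 unit of 0, and that of *Krt88*, from 0.19 to 0.49, lies farthest above 0 at its lower end.

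All 4 basal keratins had a higher mean in the knockout, with a median difference of 0.28, and the range of the group's mean level was 10.57 to 11.07 on the knockout arrays and 10.29 to 10.67 on the wild-type arrays. None passed the test across all probe sets. *Krt15*, a keratin of basal cells and of the stem cell region of the hair follicle, read 12.69, 12.49, 12.78 and 13.05 on knockout arrays 1 to 4, against 12.39, 12.41, 12.50 and 12.10 on wild-type arrays 1 to 4. The groups overlapped by 1 pair of arrays only, knockout array 2 lying just below wild-type array 3. The difference was 0.40 ± 0.14 (SE), a 1.32-fold higher mean, with an unadjusted p of 0.0211 and an adjusted p of 0.313 in limma. It was 0.67 on day 1 and 0.14 on day 2, and 0.29 to 0.49 when each array was left out in turn. The exact permutation test over the arrays gave p = 0.0571, where the smallest p that 4 against 4 can give is 0.0286.

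*Krt17*, known from hair follicles, glands and healing skin, read 8.11, 7.36, 7.16 and 7.15 in the knockout and 7.19, 6.97, 7.00 and 6.63 in the wild type. Only wild-type array 1 reached into the knockout range, and knockout array 1 was the highest of the 8. The difference was 0.50 ± 0.20 (SE, limma adjusted p = 0.368), with 0.25 on day 1 and 0.75 on day 2. Without knockout array 1 and wild-type array 1, the arrays with high seminal vesicle markers, it was 0.45. The second *Krt17* probe set, with a mean of 3.03, differed by 0.011, and a probe set that names *Krt17* and *Krt14* together, which the rule left out, by 0.23.

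*Krt5*, the type II keratin of basal cells, read 11.93, 11.67, 11.99 and 12.30 in the knockout and 11.83, 11.80, 11.92 and 11.72 in the wild type. The lowest and the highest of the 8 values were both knockout arrays. Its difference was 0.16 ± 0.12 (SE, limma adjusted p = 0.647), with 0.37 on day 1 and -0.059 on day 2. Its type I partner *Krt14* read 11.54, 10.75, 11.12 and 11.31 in the knockout and 11.25, 11.08, 11.05 and 10.72 in the wild type, and the groups overlapped. The difference was 0.15 ± 0.19 (SE, adjusted p = 0.781), and its other probe sets gave 0.15 and 0.0079. The brightest *Krt14* probe set is of a type (suffix _x_at) whose probes may also bind RNA of similar genes.

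Basal cell genes other than keratins did not all lie on the same side. Of the 9 measured, the knockout mean was higher for 6 and lower for 3, with a median difference of 0.15 and levels of 8.59 to 8.96 in the knockout against 8.68 to 8.88 in the wild type. At unadjusted p under 0.05 there was 1 in each direction (11.1%, beside 6.27% of all genes higher and 8.49% lower). Without knockout array 1 and wild-type array 1 there were 0 higher and 1 lower, beside 5.49% and 7.76% of all probe sets in that fit. *Itgb4*, the integrin of the hemidesmosome that anchors the basal keratin network, was at 0.34 ± 0.12 (SE, limma adjusted p = 0.310). *Lama3*, a chain of the laminin it binds, was at -0.47 ± 0.12 (adjusted p = 0.237), with 0.049 on a second, dimmer probe set. *Trp63*, the transcription factor that marks basal cells, was at 0.21 ± 0.17 (adjusted p = 0.649), and its other probe sets gave 0.013 to 0.12.

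**Figure D2:**
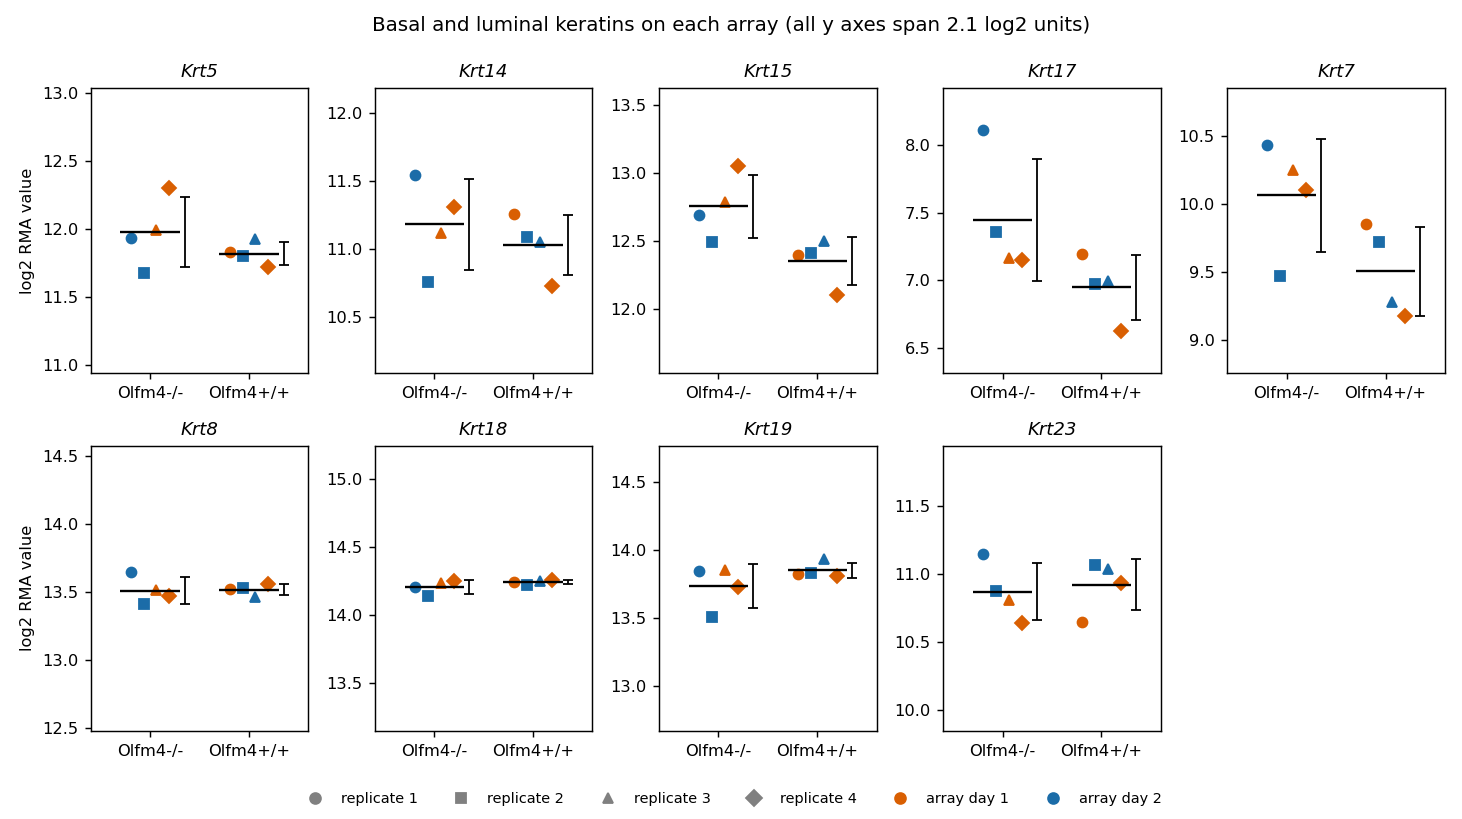
Log2 RMA value (y axis) of 4 basal and 5 luminal keratins on each of 8 arrays, knockout left and wild type right in each panel. Symbols are replicates, colors are array days, horizontal lines are group means and bars are ±1 SD (n = 4). All panels span the same number of log2 units, so the tight values of *Krt8* and *Krt18* and the wider ones of *Krt7* and *Krt17* can be compared as spreads.

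The luminal keratins lay close to 0, with *Krt7* as the exception. Of the 6 genes, the knockout mean was lower for 5 and higher for 1, and the median difference was -0.025. *Krt8*, the type II keratin of luminal cells, read 13.64, 13.41, 13.51 and 13.47 in the knockout and 13.52, 13.52, 13.46 and 13.55 in the wild type. *Krt18*, its type I partner, read 14.20, 14.14, 14.23 and 14.25 in the knockout and 14.24, 14.22, 14.25 and 14.25 in the wild type. In both genes the groups overlapped. The difference of *Krt8* was -0.0088 (95% confidence interval -0.18 to 0.16) and that of *Krt18* was -0.036 (-0.17 to 0.095). The other *Krt8* probe sets gave 0.049 and -0.012.

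*Krt19*, a short type I keratin of simple and glandular epithelium, read 13.85, 13.51, 13.86 and 13.73 in the knockout and 13.83, 13.84, 13.94 and 13.81 in the wild type. Knockout array 2 was the lowest of the 8 arrays, and the other knockout arrays lay among or near the wild-type arrays. Its difference was -0.12 (95% confidence interval -0.34 to 0.10), and -0.031 without knockout array 2. *Krt23*, a type I keratin of glandular epithelia, read 11.15, 10.87, 10.81 and 10.64 in the knockout and 10.65, 11.06, 11.03 and 10.93 in the wild type. The groups spanned nearly the same range, and the difference was -0.052 (-0.27 to 0.17). *Krt20*, known from gut and bladder lining, differed by -0.014, with 0.35 on day 1 and -0.38 on day 2.

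*Krt7*, a type II keratin of ducts, bladder lining and mesothelium, had the largest estimate of the family. It read 10.43, 9.47, 10.25 and 10.10 in the knockout and 9.85, 9.72, 9.28 and 9.17 in the wild type. Of the knockout arrays, 3 lay above every wild-type array, and knockout array 2 lay below wild-type arrays 1 and 2. The difference was 0.56 ± 0.24 (SE), a 1.47-fold higher mean, with a limma adjusted p of 0.391 and a 95% confidence interval from -0.0010 to 1.12. It was 0.66 on day 1, 0.46 on day 2, and 0.39 to 0.77 when each array was left out in turn. The day 2 value came from knockout array 1 (10.43), an array with high seminal vesicle genes. The other knockout array of that day, array 2 (9.47), lay between wild-type arrays 2 (9.72) and 3 (9.28).

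Markers of other linings that carry *Krt7* were read beside it. The mean of 4 mesothelium genes was 6.44 to 7.10 on the knockout arrays and 5.65 to 6.31 on the wild-type arrays, with no overlap. All 4 had a higher mean in the knockout, with *Upk3b* at 1.73, *Lrrn4* at 0.68 and *Msln* at 0.51, and none passed the adjusted test. The fourth, *Wt1*, was the brightest (mean 8.30) and differed by only 0.080, with overlapping groups, while *Lrrn4* had a mean of 4.83. Of the 4 genes, 2 had every knockout array above every wild-type array and 0 every one below, beside 816 and 1144 of all 18193 genes. The mean of 5 urothelium genes, *Upk3b* among them, was 8.97 to 9.29 in the knockout and 8.37 to 9.48 in the wild type. The part of these cells in the *Krt7* values was not tested.

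The 13 stratified keratins spread to both sides, with 8 higher and 5 lower means in the knockout and a median of 0.032. Without knockout array 1 and wild-type array 1 the counts were 6 and 7 and the median -0.012. Their differences ran from -0.51 to 0.48, and 9 of the 13 had opposite signs on the 2 array days. None was at an unadjusted p under 0.05 in the fit of all 8 arrays. *Krt79*, known from the hair canal and sebaceous duct, read 6.38, 6.73, 7.35 and 7.24 in the knockout and 7.49, 7.75, 7.62 and 6.87 in the wild type. Of the wild-type arrays, 3 lay above every knockout array, and wild-type array 4 lay among them. The difference was -0.51 ± 0.27 (SE, limma adjusted p = 0.482). Within days it was 0.11 on day 1 and -1.13 on day 2.

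*Krt4*, a type II keratin of mucosal linings, followed a like course by day. It read 8.19, 7.71, 8.92 and 8.15 in the knockout and 8.60, 8.98, 8.83 and 8.09 in the wild type. The groups overlapped over most of their range, with a difference of -0.38 ± 0.29 (SE, limma adjusted p = 0.629), 0.19 on day 1 and -0.95 on day 2. The second *Krt4* probe set gave -0.13. *Krt1*, of the upper epidermis, was at -0.26 ± 0.12 (SE, adjusted p = 0.413), with 0.016 on day 1 and -0.54 on day 2. Its partner *Krt10* read 6.97, 7.23, 7.10 and 7.22 in the knockout and 7.16, 7.23, 7.09 and 7.38 in the wild type, with overlapping groups and a difference of -0.082 (95% confidence interval -0.29 to 0.12).

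*Krt78*, a type II keratin of stratified epithelium, read 10.13, 8.73, 8.52 and 8.57 in the knockout and 8.16, 8.80, 8.63 and 8.46 in the wild type. The highest value was on knockout array 1 and the lowest on wild-type array 1, the arrays that shared high seminal vesicle markers, and the other 6 arrays lay between 8.46 and 8.80. The difference was 0.48 ± 0.28 (SE, limma adjusted p = 0.532) over all arrays and 0.052 without those 2. *Krt13*, the type I partner of *Krt4*, was at 0.39 ± 0.17 (SE, adjusted p = 0.393), and its other probe sets gave -0.0030 and 0.025. *Krt2*, of the upper epidermis, was at 0.19 ± 0.080 (adjusted p = 0.395), at a mean of 3.12. The remaining stratified keratins were *Krt80* (0.17), *Krt16* (0.13), *Krt24* (0.085), *Krt76* (0.032), *Krt12* (0.017, second probe set 0.14) and *Krt77* (-0.033).

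**Figure D3:**
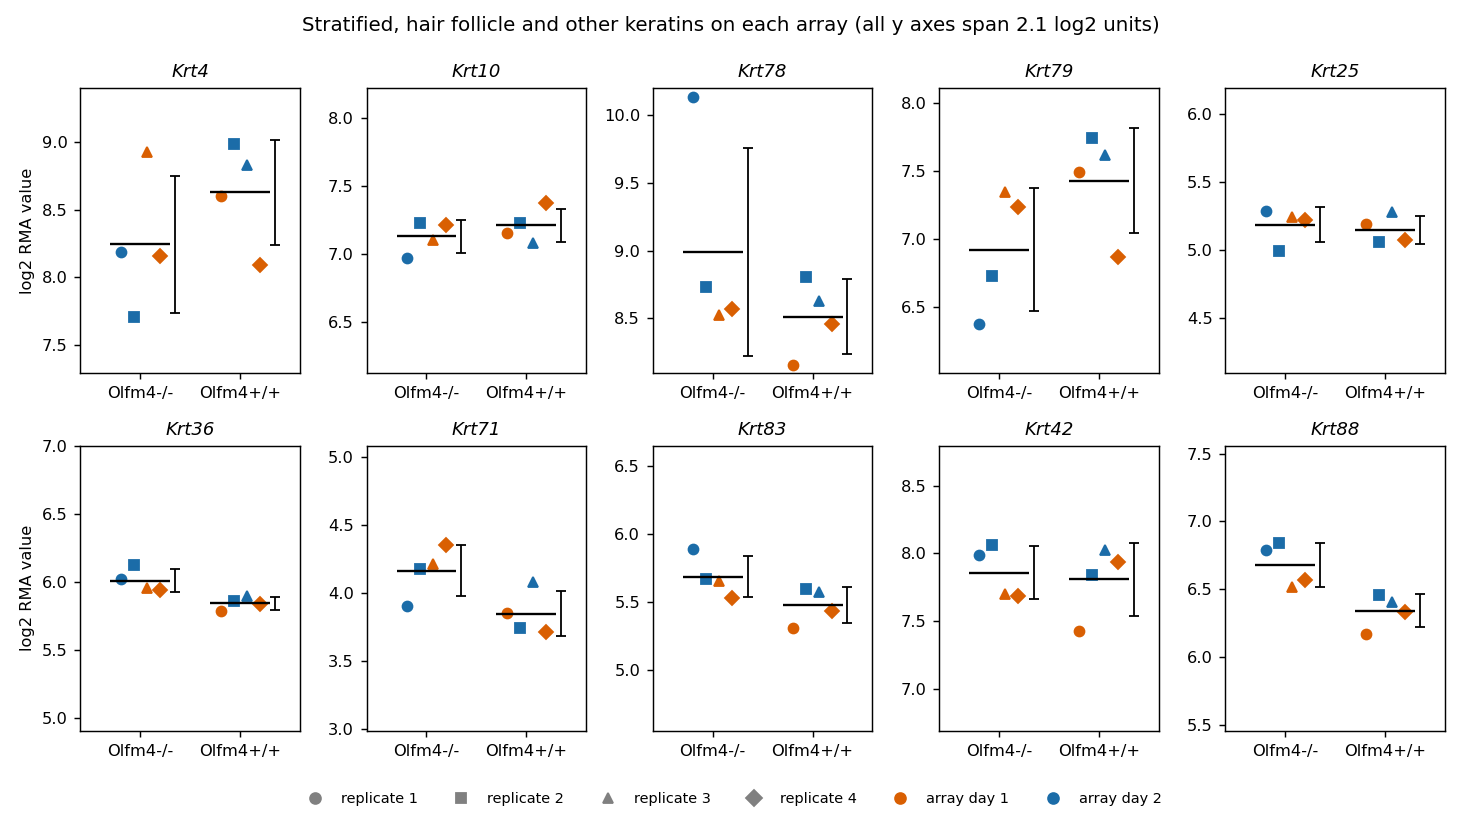
Log2 RMA value (y axis) of 4 stratified keratins (*Krt4*, *Krt10*, *Krt78*, *Krt79*), 4 hair follicle keratins (*Krt25*, *Krt36*, *Krt71*, *Krt83*) and *Krt42* and *Krt88* on each of 8 arrays, knockout left and wild type right. Symbols are replicates, colors are array days, lines are group means and bars are ±1 SD (n = 4). The *Krt78* value of 10.13 on knockout replicate 1 stands alone, and the *Krt36* and *Krt88* groups do not overlap.

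The 18 hair follicle keratins were read mostly at low values. Of these genes, 12 had a mean log2 value under 5, as did 17 of all 44 keratins (38.6%) and 21.4% of all genes, and none reached 7. No detection calls were used, so it is not known which of these values stand above background. The median difference was 0.060, with 14 higher and 4 lower means in the knockout. The range of the group's mean level was 4.63 to 4.70 in the knockout and 4.53 to 4.63 in the wild type.

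*Krt36*, a type I keratin of hard keratin structures, read 6.02, 6.12, 5.95 and 5.94 in the knockout and 5.78, 5.86, 5.90 and 5.84 in the wild type. The groups did not overlap, but the gap between them was narrow. The difference was 0.16 ± 0.059 (SE, unadjusted p = 0.0250, limma adjusted p = 0.325). *Krt83*, a type II hair shaft keratin, read 5.89, 5.67, 5.66 and 5.53 in the knockout and 5.31, 5.60, 5.57 and 5.43 in the wild type. Its groups overlapped only through knockout array 4, and the difference was 0.21 ± 0.075 (SE, adjusted p = 0.324).

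*Krt71*, of the inner root sheath of the hair, read 3.91, 4.18, 4.21 and 4.36 in the knockout and 3.85, 3.75, 4.08 and 3.72 in the wild type, all low values. Its groups overlapped through knockout array 1 and wild-type array 3, with a difference of 0.32 ± 0.12 (SE, limma adjusted p = 0.352), 0.50 on day 1 and 0.13 on day 2. *Krt25*, another inner root sheath keratin, read 5.29, 5.00, 5.24 and 5.22 in the knockout and 5.19, 5.06, 5.28 and 5.07 in the wild type. The groups overlapped wholly, with a difference of 0.038 (95% confidence interval -0.18 to 0.25). The other 14 hair follicle keratins lay between -0.076 for *Krt73* and 0.34 for *Krt32*.

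*Krt88* had the smallest p of the family. The type II gene read 6.79, 6.84, 6.52 and 6.57 in the knockout and 6.18, 6.46, 6.40 and 6.33 in the wild type. Every knockout array lay above every wild-type array, and on each day the knockout arrays were higher, by 0.29 on day 1 and 0.39 on day 2. The difference was 0.34 ± 0.066 (SE), a 1.26-fold higher mean, with an unadjusted p of 0.00108 and a limma adjusted p of 0.170. The exact permutation p was 0.0286, the smallest that 4 against 4 arrays can give. Any probe set with no overlap reaches it, and 3.69% of all probe sets lay wholly above in the knockout and 5.03% wholly below. *Krt42*, a type I gene, read 7.99, 8.06, 7.70 and 7.68 in the knockout and 7.43, 7.84, 8.03 and 7.94 in the wild type. Those groups overlapped, the difference was 0.049, and its second probe set gave -0.098. *Krt222* differed by -0.0059 and, on its second probe set, by 0.13.

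The keratins were also read within each array day. Of the 44 genes, 17 (38.6%) were higher in the knockout on both days, 4 were lower on both days (*Krt18*, *Krt19*, *Krt23* and *Krt10*) and 23 (52.3%) had opposite signs on the days, where 27% of all genes were higher on both days, 32.2% lower on both and 40.8% neither. No test of a difference between the days was made. Both days agreed in sign for 3 of the 4 basal keratins, all higher, and for 4 of the 6 luminal ones, *Krt7* higher and the others lower. The basal median was 0.31 on day 1 and 0.11 on day 2, and the stratified median 0.11 on day 1 and -0.033 on day 2. Each day holds only 2 arrays of each genotype.

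**Figure D4:**
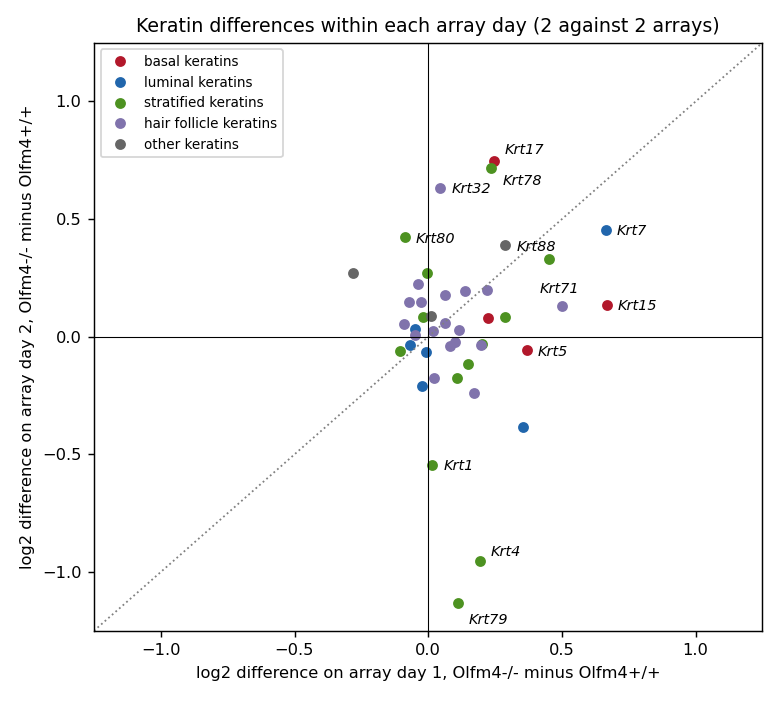
Log2 difference of each keratin gene, knockout minus wild type, on array day 1 (x axis) and array day 2 (y axis), 2 against 2 arrays on each day. Points are genes colored by keratin group, and the dotted line marks equal differences. *Krt79* (0.11 and -1.13) and *Krt4* (0.19 and -0.95) lie far below the line, while *Krt88* (0.29 and 0.39) lies near it.

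Keratin partners were compared over the 8 arrays, as 4 type II and type I pairs with exact permutation tests. *Krt5* and *Krt14* had a Pearson r of 0.63 (permutation p = 0.0951, adjusted over the 4 pairs 0.381) and a Spearman rho of 0.76 (permutation p = 0.0368, adjusted 0.147). Without the 2 arrays farthest from the *Krt5* median, r was 0.59. *Krt8* and *Krt18* had an r of 0.27 (permutation p = 0.458, adjusted 0.684) and a rho of 0.071 (permutation p = 0.882, adjusted 0.882), and r was -0.16 without 2 arrays. The values of this pair spanned only 0.24 and 0.12 log2 units. *Krt4* and *Krt13* had an r of -0.16 (permutation p = 0.701, adjusted 0.701) and a rho of -0.21 (permutation p = 0.619, adjusted 0.882), with an r of -0.27 without 2 arrays. *Krt1* and *Krt10* had an r of 0.27 (permutation p = 0.513, adjusted 0.684) and a rho of 0.095 (permutation p = 0.840, adjusted 0.882), with an r of -0.41 without 2 arrays. Over all 8 arrays, no pair passed after adjustment. The permutations did not hold genotype or array day fixed, and a day with 4 arrays is too small for a value of its own.

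Genes that work with keratins were read from lists. The list named for the cornified envelope, the protein shell of terminally differentiated stratified cells, had 17 measured genes. Of these, 6 (35.3%) were at unadjusted p under 0.05 with a higher mean in the knockout and 0 with a lower one, beside 6.27% and 8.49% of all genes read by their brightest probe set, and none passed the adjusted test. Without knockout array 1 and wild-type array 1, 5 were higher at that level and 0 lower, beside 5.49% and 7.76% of all probe sets in that fit. The median was 0.12, with 11 higher and 6 lower means, and 9 of the 17 were higher on both days. Over all arrays, the 6 genes higher at that level were *Lgals7*, *Dmkn*, *Krtdap*, *Sfn*, *Sprr3* and *Lor*. *Sprr3* had a mean of 4.65, and the other *Lor* probe sets gave 0.086 and -0.018. Of the rest, *Ivl* was at 0.12, *Flg* at 0.071, *Sbsn* at 0.18, *Calml3* at 0.32 and *Cdsn* at 0.00049. The lower means ran from -0.51 for *Sprr1a* to -0.034 for *Tgm3*. The mean level of the list was 6.23 to 6.67 in the knockout and 6.05 to 6.35 in the wild type, highest on knockout array 1 and wild-type array 1 within their groups.

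*Lgals7*, the galectin of stratified epithelia, read 11.34, 11.12, 10.87 and 11.25 in the knockout and 10.51, 10.22, 10.61 and 10.06 in the wild type. *Dmkn*, the gene of the secreted protein dermokine, read 6.22, 6.34, 6.47 and 6.00 in the knockout and 5.49, 5.83, 5.66 and 5.16 in the wild type. *Krtdap*, a gene of differentiating keratinocytes, read 9.07, 8.69, 8.56 and 8.60 in the knockout and 8.17, 8.55, 7.53 and 7.32 in the wild type. In all 3 genes every knockout array lay above every wild-type array. The list of 17 held 4 such genes and 0 with every knockout array below, beside 816 and 1144 of all 18193 genes. The differences were 0.80 ± 0.14 for *Lgals7* (SE, limma adjusted p = 0.152), 0.72 ± 0.14 for *Dmkn* (adjusted p = 0.171) and 0.84 ± 0.26 for *Krtdap* (adjusted p = 0.286).

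**Figure D5:**
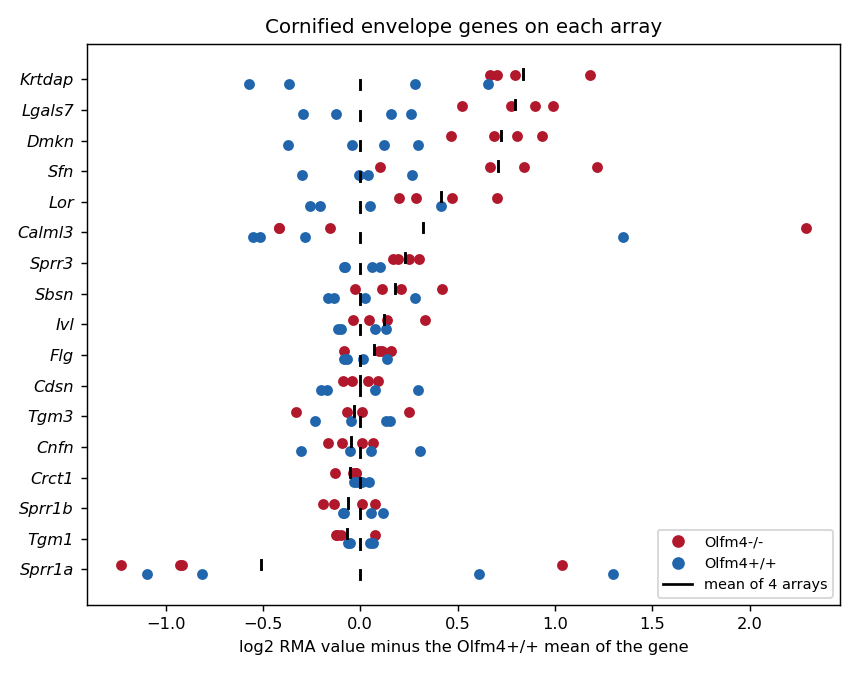
Log2 RMA value minus the wild-type mean of the gene (x axis, log2 units) for 17 cornified envelope genes (rows), knockout above and wild type below in each row. Points are arrays (n = 4 each) and short vertical lines are group means. The knockout points of *Lgals7*, *Dmkn*, *Krtdap* and *Sprr3* lie to the right of all their wild-type points, whereas *Sprr1a* and *Calml3* spread widely within both genotypes.

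Among 14 regulators of epithelial differentiation, 3 were at unadjusted p under 0.05 with a higher and 2 with a lower mean in the knockout (21.4% and 14.3%, beside 6.27% and 8.49% of all genes). The median was 0.036, with 7 genes on either side of 0, and without knockout array 1 and wild-type array 1 it was 0.12, with 10 higher and 4 lower. Of the 14, 1 had every knockout array above every wild-type array and 2 every one below, beside 816 and 1144 of all 18193 genes. *Klf4*, a transcription factor of differentiating epithelium, read 10.13, 10.08, 10.15 and 10.05 in the knockout and 10.89, 10.60, 10.77 and 10.59 in the wild type. The groups of this probe set did not overlap, at -0.61 ± 0.085 (SE, limma adjusted p = 0.0773), with -0.64 on day 1 and -0.58 on day 2. The second *Klf4* probe set, with a mean of 9.54, gave 0.035 ± 0.12 (adjusted p = 0.932) with overlapping groups, so the 2 probe sets disagreed. *Sox9*, a factor of progenitor cells, was at -0.67 ± 0.22 (adjusted p = 0.303), and its other probe sets gave -0.024 and -0.081. *Ovol1*, a repressor in differentiating epithelium, was at 0.22 ± 0.075 (adjusted p = 0.310) and, on its second probe set, at 0.067.

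Among 12 genes whose proteins bind or anchor keratin filaments, 2 were at unadjusted p under 0.05 in each direction (16.7%, beside 6.27% of all genes higher and 8.49% lower), and the median was 0.046. Without knockout array 1 and wild-type array 1, 2 were higher and 3 lower at that level, with a median of 0.011. In that fit 5.49% of all probe sets were higher and 7.76% lower. The desmosome protein gene *Jup* (plakoglobin) was at -0.35 ± 0.082 (SE, limma adjusted p = 0.218), with every knockout array below every wild-type array. *Ppl* (periplakin) was at 0.33 ± 0.091 (adjusted p = 0.258) and *Dst* (dystonin, of the hemidesmosome) at 0.30 ± 0.084 (adjusted p = 0.262), both with every knockout array above. The other *Dst* probe sets gave 0.43 to 0.70. Of the 12 genes, 2 had every knockout array above and 2 every one below, beside 816 and 1144 of all 18193 genes. Among 16 other intermediate filament genes, 0 were at that level with a higher and 2 (12.5%, beside 8.49% of all genes) with a lower mean, and none in either direction without knockout array 1 and wild-type array 1. The 2 were the lens gene *Bfsp1* at -0.48 ± 0.18 (adjusted p = 0.342) and the lamin gene *Lmnb2* at -0.30 ± 0.11 (adjusted p = 0.349), whose second probe set gave -0.049. The largest estimates were *Prph* at -0.97 ± 0.99 (adjusted p = 0.732) and *Nefl* at -0.72 ± 1.57 (adjusted p = 0.887). Other probe sets gave -0.19 to -0.018 for *Prph* and -1.13 for *Nefl*. *Nefl* read 10.82 on knockout array 1, 10.30 on wild-type array 1 and 9.87 on wild-type array 3, against 5.13 to 6.77 on the other arrays. *Vim*, the filament of mesenchymal cells, was at 0.13 ± 0.11 (adjusted p = 0.675). Of the 4 keratins whose symbols end in a letter, which the rule leaves out, *Krt6a* was at 0.23 (adjusted p = 0.360) with 0.059 and -0.15 on its other probe sets, *Krt33a* at -0.14 (adjusted p = 0.445) and *Krt33b* at 0.055 (adjusted p = 0.861).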

How the data were processed

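The authors deposited 1 table of log2 values made with RMA (version not given in the sources used here), 1 column for each of 8 arrays and no detection calls. All columns were mapped to a sample by their titles. The linear model of limma 3.58.1 (R 4.3.3) held genotype and array day, with moderated variances and 2-sided tests. After removal of 64 control probe sets, p-values were adjusted over 45037, of which 34945 had 1 symbol, 932 several and 9160 none. The methods name ANOVA without covariates, which was run as an alternative. All 44 keratin symbols matched RefSeq, and 8 genes had more than 1 probe set.

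Keratins given with every array value are those with a mean of 7 or more in either genotype and those with a probe set at unadjusted p under 0.05. *Krt4*, *Krt25* and *Krt79* are also given, which the study names as lower in the knockout at an older age than the 3 months here. Of each other list, up to 3 genes with the smallest p are named. The array values of *Lgals7*, *Dmkn*, *Krtdap* and *Klf4* are printed as well, a choice made after they were seen. Others that are named were also chosen after their values were seen. They are *Trp63*, *Vim*, *Prph*, *Nefl*, *Wt1*, *Upk1a* with the other urothelium genes, further cornified envelope genes and those pointed out in a plot. *Krt88* was in no list and was put with the other keratins. The members and lists were chosen with earlier results of these data known. On simulated data with 200 changed probe sets, spread over several sizes, the fit recovered 28% of differences of 0.5 and 74% of differences of 1. Unchanged probe sets made up 5.73% of all calls. The simulated noise was independent between probe sets, whereas the real arrays shared differences such as those of the seminal vesicle genes. The number of arrays limits the precision. Alternatives were the fit without array day, a replicate block, ANOVA, an intensity trend, array weights, 3 normalizations, filters at 5 and 7, single array days, probe sets of a gene averaged and each array left out. Leaving out knockout array 1 with wild-type array 1 was added after the data were seen.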

Additional observations from a re-analysis of the deposited data

Results flagged for a closer look

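*Krt78* on knockout array 1 stood apart from the other arrays of its group. It read 10.13, against 8.52 to 8.73 on the other 3 knockout arrays, and the gap was 0.869 of the range of the group, above the critical value of Dixon's test for 4 values. It was the only one of 38 groups of 4 keratin values examined, and chance alone marks about 1 group in 20. The same array held seminal vesicle genes at 13.81. Bladder lining genes on it went both ways, with a low *Upk1a* at 8.82 and a high *Upk1b* at 12.39. Their part in the *Krt78* value was not tested.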

How the results depend on the processing

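No keratin probe set passed the adjusted test under any alternative. The count at unadjusted p under 0.05 was less settled. Keratin probe sets higher in the knockout numbered 6, and 2 with a mean of 7 or more, 3 without knockout array 1 and wild-type array 1, and 3 to 8 when each array was left out (3 without knockout array 3). Those lower in the knockout numbered 0, and 3 on day 2 alone and 0 to 2 with an array left out (2 without knockout array 3 or wild-type array 4, 1 without knockout array 4). *Krt88* was at unadjusted p under 0.05 with every single array left out. Deviations from the genotype means correlated at 0.34, 0.17, 0.043 and -0.0056 between the knockout and wild-type arrays of equal replicate number. Arrays of unequal number were not compared in this way, so whether the replicate numbers pair the arrays was not tested. With the replicate block, 6 keratin probe sets were higher, 0 lower and 0 called. The median of the stratified keratins was -0.23 among genes with a mean of 7 or more. That of the hair follicle keratins was 0.13 among genes with a mean of 5 or more and 0.012 to 0.074 with an array left out (0.012 without wild-type array 2), and no gene was left at 7. Signs turned for differences near 0 or on 1 day. *Krt8* was 0.020 after centring, 0.032 on day 2, 0.0094 as the mean of its probe sets and -0.064 to 0.031 with an array left out. *Krt4* was 0.19 and *Krt79* 0.11 on day 1, and *Krt5* was -0.059 on day 2. *Krt25* was -0.024 on day 2, -0.0059 without knockout array 1 and wild-type array 1, and -0.0089 to 0.11 with an array left out. *Krt42* was -0.024 as the mean of its probe sets, -0.059 without those arrays and -0.045 to 0.16 with an array left out, and *Krt23* was -0.11 to 0.0088. Of the Pearson correlations, *Krt8* with *Krt18* was -0.062 after centring and -0.73 to 0.70 with an array left out. *Krt4* with *Krt13* was 0.20 on deviations from the genotype means, 0.048 without knockout array 1 and wild-type array 1, and -0.42 to 0.021 with an array left out. *Krt1* with *Krt10* was -0.31 without those arrays and -0.32 to 0.44 with an array left out. *Krt5* with *Krt14* was 0.90 without those arrays (exact permutation p = 0.00833, adjusted 0.0333), against 0.63 over all 8 arrays (permutation p = 0.0951, adjusted 0.381). Those arrays were left out after the data were seen, and the permutation did not hold genotype or array day fixed. The causes were not tested. Leaving out arrays also leaves fewer samples.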
